A study of Homo sapiens with 3 samples.

Results

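Among the regions where MYC was precipitated in P493 cells after MST-312, 1308 had a high signal and no region of the untreated list near them. They were chosen by their summit pileup, the number of sequenced fragments, extended to 200 bp, that cover a region's highest point. The pileup had to be at least 45 on chromosomes 1 to 22 and X, and the region had to lie more than 1 kb from every untreated region. The deposited MST-312 list holds 27614 regions, of which 16262 on these chromosomes had a pileup of at least 45. Of the 16262, 14744 shared at least 1 base with an untreated region and are called partnered regions here. A further 210 shared no base but lay within 1 kb of an untreated region, and the remaining 1308, or 8.04% (exact Clopper-Pearson 95% interval 7.63 to 8.47), are called MST-312-only regions. Pileup and the lack of an untreated neighbour chose these regions, so both are given as descriptions and not as findings.

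The study measured MYC binding by chromatin immunoprecipitation and single-read sequencing in P493. This line was derived from human B lymphocytes and holds a MYC transgene that tetracycline represses. The groups used here are untreated P493 cells and P493 cells given MST-312, a small molecule that inhibits telomerase, both precipitated with the same lot of the MYC antibody N262. The labels give neither the dose and duration of MST-312 nor the state of the transgene. An input library of untreated P493 cells, made without antibody, served as background for both lists. Each condition is 1 library, so no value below has a replicate check, no p-value can be given, and intervals cover counting error over regions only. The untreated library kept 60805153 tags after duplicates were limited and the MST-312 library kept 55400354. The redundant rate, the share of tags beyond the allowed duplicates, was 0.24 and 0.49.

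MYC is a transcription factor that pairs with MAX and binds DNA at E-boxes, short motifs that are frequent at promoters of genes for growth and ribosome production. At high MYC levels it also occupies many weaker sites at open promoters and enhancers, so the number of detectable MYC sites depends on the amount of protein and on the depth of the library. The regions are described by hg19 position; genes and sequences at these positions are not analysed here, because the annotation at hand is of another build.

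The share of MST-312-only regions was highest just above the pileup of 45 and fell at each step beyond 48. At a pileup of exactly 45, 157 of 484 regions (32.4%, interval 28.3 to 36.8) had no untreated region within 1 kb. The share was 23.7% at 46, 23.8% at 47 to 48, 19.5% at 49 to 50, 17.1% at 51 to 55 and 10.2% at 56 to 60. It was 6.51% at 61 to 70, 2.50% at 71 to 80 and 1.47% at 81 to 100. Above a pileup of 100, 8 of 3907 regions (0.205%, interval 0.0884 to 0.403) were MST-312-only. Over MST-312 regions of every pileup on these chromosomes, 34.5% lay more than 1 kb from every untreated region, and under a pileup of 45 it was 8210 of 11346 regions (72.4%). The 1308 regions are thus the 13.7% with the highest pileup among 9518 MST-312 regions that meet the distance rule.

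**Figure D1:**
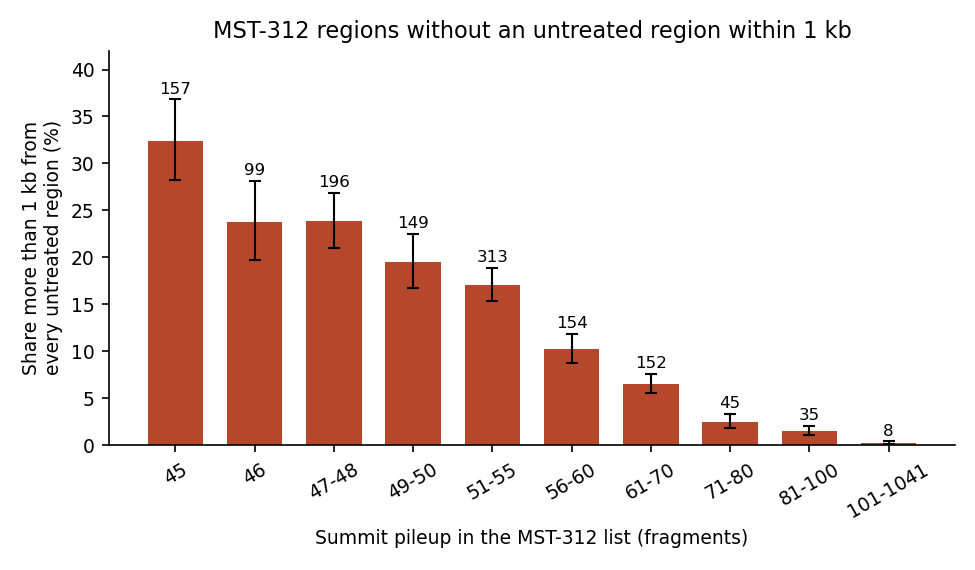
Share of MST-312 regions (y axis, percent) that lie more than 1 kb from every untreated region, by summit pileup (x axis, fragments), with exact 95% intervals as error bars and the number of such regions above each bar. The share is 32.4% at a pileup of 45 and 0.205% above 100.

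Most MST-312-only regions were only moderately strong. Their median pileup was 51 fragments (quartiles 47 and 57), and 10% of them had a pileup above 67. The authors' fold enrichment, which divides the pileup by the local background of the input library, had a median of 5.86 (quartiles 4.88 and 7.27), and the −log10 q a median of 22.1 (quartiles 17.7 and 28.3). Regions just inside and just outside the pileup threshold were alike. The 256 MST-312-only regions of pileup 45 to 46 had a median length of 419.5 bp, a median fold enrichment of 5.73 and a median gap of 16085 bp to the nearest untreated region. The 329 regions of pileup 43 to 44 that meet the distance rule had medians of 403 bp, 5.73 and 17840 bp.

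Of the 8 MST-312-only regions with a pileup above 100, 4 stood on a high input signal. On chromosome 21, chr21:9826650-9827615 had a pileup of 1041 fragments over a local background of 491.03 fragments, which is a fold enrichment of 2.12. The local background was 87.0 fragments at chr16:33961117-33961487 (pileup 191) and 86.1 at chr19:24183931-24184149 (pileup 185), with fold enrichments of 2.18 and 2.14. A further region, chr21:11143593-11144814 (pileup 123), had a local background of 44.8 fragments and a fold enrichment of 2.71. These 4 regions lie in the parts of their chromosomes next to the centromere, where repeated sequence is common. For comparison, the median local background of the MST-312-only regions was 7.91 fragments.

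The other MST-312-only regions among those of highest pileup had local backgrounds of 7.03 to 15.8 fragments. At chr20:2818629-2819268 the pileup was 146 fragments and the fold enrichment 8.74, with an untreated region of pileup 140 at a gap of 1524 bp. The region chr9:107685770-107686470 (pileup 114, fold enrichment 8.65) also lay close to a strong untreated region, of pileup 180 at 1961 bp. Farther from untreated regions were chr3:52057798-52058390 (pileup 110, fold enrichment 6.60, gap 21958 bp) and chr3:14889169-14890047 (pileup 98, fold enrichment 6.58, gap 72532 bp). The region chr5:134406966-134407543 reached a pileup of 101 and a fold enrichment of 12.7, and chr2:242067021-242067542 a pileup of 100 and a fold enrichment of 11.3. The last of these, chr12:6867581-6868110, had a pileup of 98 and a fold enrichment of 9.28. Only 8 MST-312-only regions (0.612%, interval 0.264 to 1.20) had a local background over 3 times the list median of 6.85 fragments, 4 of them on chromosome 21, 2 on chromosome 9 and 1 each on chromosomes 16 and 19. Among partnered regions the share was 89 of 14744 (0.604%), and 0.0485% when partnered regions were weighted to the pileups of the MST-312-only regions.

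An unlisted untreated site can still hold MYC signal, and the files limit how much. The deposited −log10 p follows from the pileup and the local background by the Poisson distribution, to within 0.000325 for the 27376 MST-312 regions and 0.000172 for the 30170 untreated regions recomputed. Both lists take the local background from the same input. At 1884 pairs of regions with summits within 10 bp, the untreated background was a median of 1.10 times that of the MST-312 list, which equals the ratio of kept tags. The pileup that a site needed to reach the lowest −log10 p of the untreated list (15.4) can thus be computed at the local background of each MST-312-only region. This listing level had a median of 42 fragments (quartiles 37 and 46). The MST-312 pileups, scaled to the untreated number of kept tags, were a median of 1.36 times the listing level (quartiles 1.20 and 1.57). An untreated pileup anywhere below the listing level would leave the site off the list, so these ratios are the smallest differences that the absence of an untreated region allows.

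For most MST-312-only regions this smallest difference was small. The scaled pileup was at least 1.5 times the listing level at 422 of the 1308 regions (32.3%, interval 29.7 to 34.9), at least 2 times at 53 (4.05%, 3.05 to 5.27) and at least 2.5 times at 14 (1.07%, 0.586 to 1.79). Partnered regions weighted to the same pileups had shares of 33.3%, 5.79% and 1.22%, of which the 5.79% lies above the interval of 3.05 to 5.27. At equal pileup this ratio varies only with the local background of the input. The comparison therefore says nothing about the untreated signal. Without scaling for kept tags, the numbers were 246, 34 and 6, and 80 regions (6.12%) had a pileup below the untreated listing level. The widest margin was at chr11:10066020-10066573, where the pileup was 95 fragments, or 104.3 scaled, against a listing level of 34. Next came chr5:111922165-111922894 (scaled pileup 95.5 against 32), chr18:7733716-7734144 (87.8 against 30), chr8:51682923-51683619 (105.4 against 37) and chr5:134406966-134407543 (110.9 against 39). The first 3 of these also belong to the MST-312-only regions of highest fold enrichment, at 15.3, 15.8 and 16.5. The other members of that set were chr4:102477944-102478438 (fold enrichment 14.3, scaled pileup 73.5 against a listing level of 29) and chr2:131548859-131549602 (14.3, 94.4 against 34). The listing level assumes that the untreated list holds every call above its lowest −log10 p, which the file headers do not state.

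**Figure D2:**
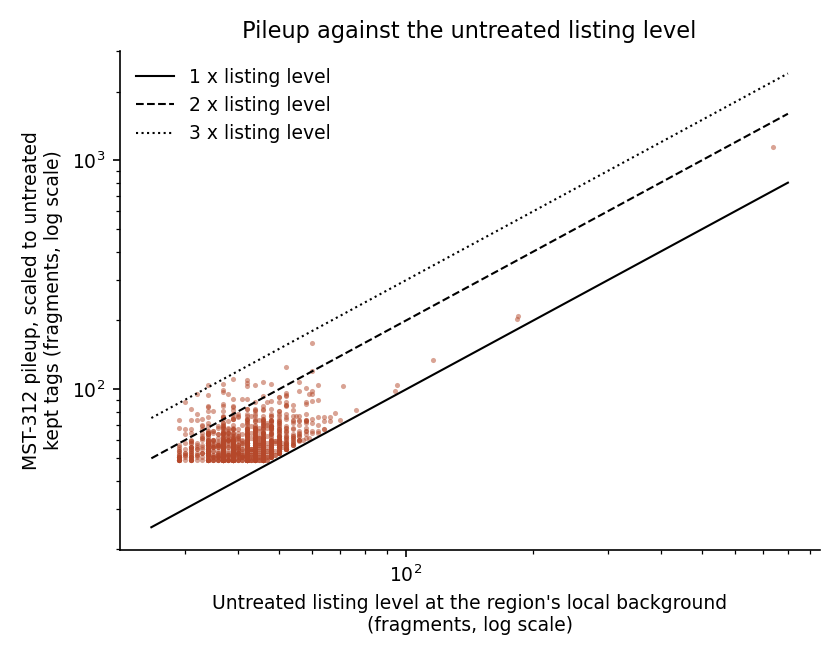
Each point is 1 of the 1308 MST-312-only regions, with the untreated listing level at its local background (x axis, fragments, log scale) and its MST-312 pileup scaled to the untreated number of kept tags (y axis, fragments, log scale); lines mark 1, 2 and 3 times the listing level. Most points lie between the lines for 1 and 2 times, 53 lie on or above the line for 2 times, and the point at the far right is the chromosome 21 region of pileup 1041.

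Partnered regions of the same MST-312 pileup give the untreated signal at sites listed in both libraries. Among 12887 partnered regions that met a single untreated region, weighted to the pileups of the MST-312-only regions, the untreated pileup had a median of 74 fragments (quartiles 57 and 97). These pairs are on the untreated list by definition, so this gives the range of listed values and not a contrast with the MST-312-only regions. In the opposite direction, 4403 of 20191 untreated regions of a pileup of at least 49.4, which is 45 scaled by kept tags, had no MST-312 region within 1 kb (21.8%, interval 21.2 to 22.4). The higher redundant rate of the MST-312 library goes with this difference, and its part in it was not tested.

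The numbers in the deposited region names run along the genome over all calls, listed or not, and show how many unlisted untreated calls surrounded each MST-312-only region. They run to 695490 in the untreated list. Of the 1308 regions, 1306 lay between 2 listed untreated regions of their chromosome. The interval between those neighbours held a median of 22 unlisted untreated calls (quartiles 11 and 49) over a median of 72948 bp. It held at least 1 unlisted call for 1304 regions, so a weak untreated call at the same place is possible for nearly all of them. For 2 regions the interval held none, so that the untreated library had no call there even at the p-value threshold of 0.05. They were chr9:123704807-123705166, with a pileup of 54 and a fold enrichment of 5.16 in an interval of 7.55 kb, and chr5:1297209-1297703, with a pileup of 48 and a fold enrichment of 3.95 in an interval of 16.8 kb. Scaled to the untreated number of kept tags, their pileups were 59.3 and 52.7 fragments, 1.29 and 1.05 times the listing levels of 46 and 50 at these places. As even a call at the p-value threshold of 0.05 was missing, these ratios understate the smallest difference at the 2 places. The pileup needed for such a call was not computed. These 2 regions were named after their values were seen.

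MST-312-only regions were shorter than partnered regions of equal pileup. Their median length was 464 bp (interval 452 to 479, quartiles 363 and 613), and together they covered 680 kb. Partnered regions weighted to the same pileups had a median length of 641 bp (quartiles 456 and 909). The difference was present in each of the 10 pileup bands. At a pileup of 45 the medians were 406 and 589 bp, at 51 to 55 they were 452 and 641 bp, and at 81 to 100 they were 613 and 930 bp. Only 51 MST-312-only regions (3.90%, interval 2.92 to 5.09) were at least 1000 bp long, against 19.2% of the weighted partnered regions, and 81 (6.19%) were under 300 bp, against 2.57%. The longest were chr20:61957631-61959522 with 1892 bp, chr5:180470966-180472762 with 1797 bp and chr9:117249914-117251396 with 1483 bp, at pileups of 51, 49 and 59. The 210 regions that shared no base but lay within 1 kb of an untreated region were short too, with a median length of 485 bp at the same median pileup of 51. A longer region is more likely to share a base with an untreated region, so the rule itself favours short regions in both of these sets. How much of the length difference comes from the rule was not tested.

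**Figure D3:**
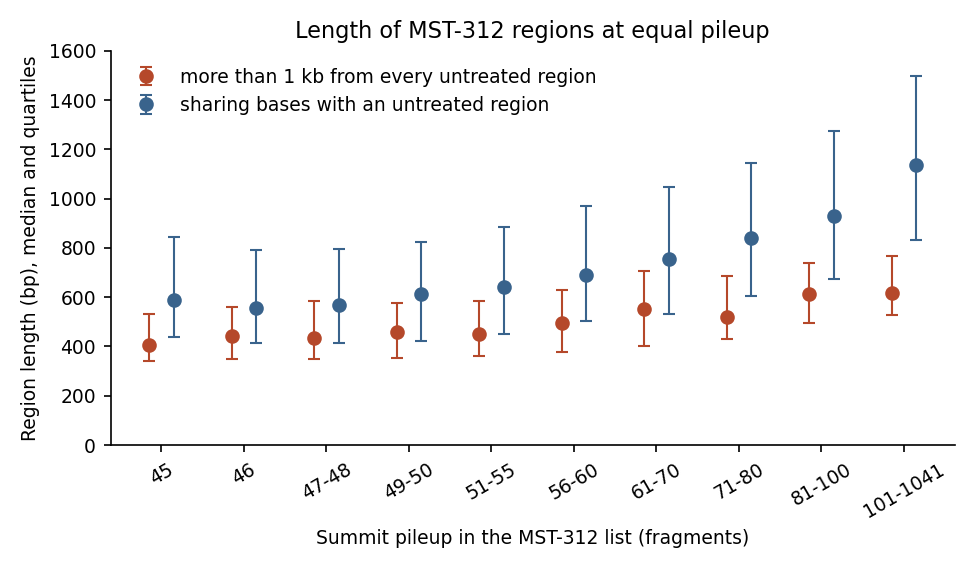
Region length (y axis, bp) by summit pileup (x axis, fragments) for MST-312-only regions and for partnered regions; points are medians and bars run from the first to the third quartile. The medians of the MST-312-only regions lie below those of the partnered regions in each band, at 406 against 589 bp for a pileup of 45.

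At equal pileup, fold enrichment and −log10 q follow from the local background, so they are not separate measures. The medians of fold enrichment and local background were close in both sets. The sets differed at low fold enrichment, which at a given pileup means a high local background. The median fold enrichment was 5.86 in MST-312-only regions and 6.10 in weighted partnered regions. The median local background was 7.91 fragments in both. A fold enrichment of at least 10 was found in 64 MST-312-only regions (4.89%, interval 3.79 to 6.21) and in 5.36% of the weighted partnered regions. A fold enrichment under 4 was found in 62 (4.74%, interval 3.65 to 6.04) and in 2.57%. A −log10 q of at least 26 was found in 439 (33.6%, interval 31.0 to 36.2) and in 33.7%. When partnered regions were weighted by pileup and local background together, their median length was still 637 bp.

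The MST-312-only regions lay a median of 14580 bp from the nearest untreated region (interval 12542 to 16053, quartiles 5114 and 36305). The rule sets the lower end, and the smallest gaps were 1015 bp at chr9:71163262-71163674, 1020 bp at chr2:9689597-9689967 and 1027 bp at chr21:43539039-43539414. Gaps of up to 5 kb were found for 323 regions (24.7%, interval 22.4 to 27.1), gaps of over 50 kb for 257 (19.6%, 17.5 to 21.9) and gaps of over 100 kb for 130 (9.94%, 8.37 to 11.7). The most remote regions were chr3:145074900-145075505, 1051 kb from the nearest untreated region, chr4:59441970-59442341 at 1011 kb and chr7:9453385-9453727 at 823 kb. Their pileups were 48, 50 and 45 fragments.

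Compared with partnered regions, the MST-312-only regions stood slightly farther from other untreated regions. For this comparison the untreated partner itself was set aside, and only the 12334 partnered regions were used whose nearest other untreated region lay beyond 1 kb, as the rule requires of the MST-312-only regions. Weighted to equal pileup, their median gap was 11858 bp (quartiles 4271 and 34384), just below the interval of the MST-312-only median. The untreated regions nearest to MST-312-only regions had a median pileup of 58.5 fragments (interval 56 to 61), and those nearest to the partnered regions 65 fragments. Within the MST-312-only regions, the most remote had the weakest untreated neighbours. The median pileup of the nearest untreated region was 63 fragments at gaps of 1 to 2 kb, 61 at 10 to 50 kb, 44 at 100 to 500 kb and 35 for the 10 regions beyond 500 kb. The median local background was 8.78 fragments at gaps of 1 to 2 kb and 6.68 at 100 to 500 kb, while the median pileup of the MST-312-only regions was 52 and 49.

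**Figure D4:**
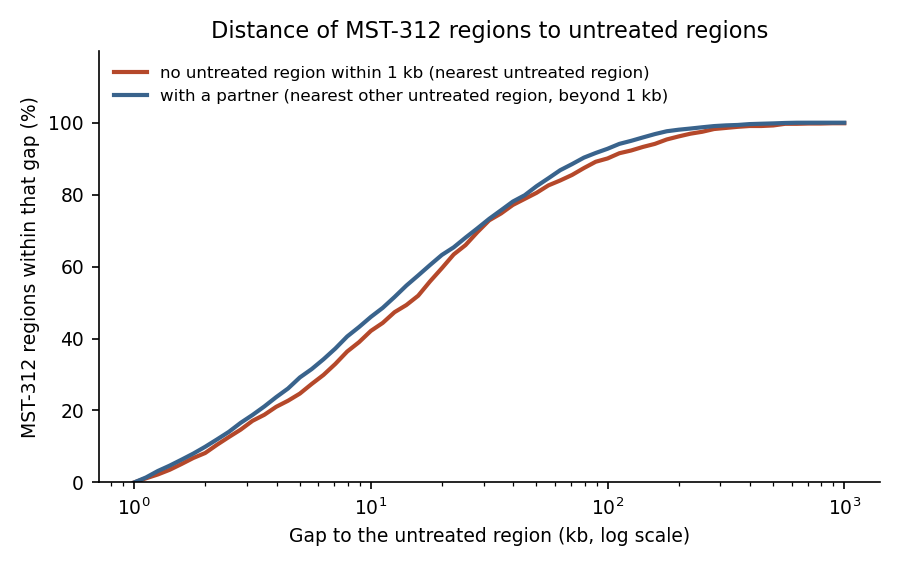
Cumulative share (y axis, percent) of MST-312-only regions within a given gap of the nearest untreated region (x axis, kb, log scale), and of partnered regions, weighted to equal pileup, within that gap of the nearest untreated region other than their partner, both for gaps beyond 1 kb. The curves run close together, with medians of 14580 and 11858 bp.

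All 23 chromosomes held MST-312-only regions, and chromosome 9 held the most. It had 145 of the 1308 (11.1%, interval 9.43 to 12.9), followed by chromosome 1 with 118 and chromosome 2 with 91, while chromosome 18 had the fewest with 20. Of the regions of pileup at least 45 on chromosome 9, 145 of 1019 were MST-312-only (14.2%, interval 12.1 to 16.5), against 1163 of 15243 on the other chromosomes (7.63%, 7.21 to 8.06). The share was 13.6% on chromosome 21 (9.14 to 19.1), 10.8% on chromosome 4 (8.28 to 13.8) and 10.5% on chromosome 22 (7.85 to 13.6), whose intervals overlap that of chromosome 9. Of the 27 MST-312-only regions on chromosome 21, 8 belong to 1 group next to the centromere, described below. Chromosome 19 had the lowest share, with 49 of 1071 regions (4.58%), and chromosomes 16 and 6 came next with 5.50% and 5.61%. Per Mb between the outermost listed positions, chromosome 22 held the most MST-312-only regions, at 1.44, chromosome 9 had 1.03 and chromosome X the fewest, at 0.158.

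Chromosome 9 also had the highest local background. The median over its MST-312 regions was 10.3 fragments, against 5.09 to 7.91 on the other chromosomes. In the untreated list, called against the same input, it was 11.6 against 5.78 to 8.68. A fixed pileup of 45 is therefore a smaller enrichment on chromosome 9, where the MST-312-only regions had a median fold enrichment of 4.87 and a median −log10 q of 17.9, against 6.06 and 22.8 elsewhere. With a −log10 q of at least 26 required as well, 27 of 626 regions on chromosome 9 were MST-312-only (4.31%, interval 2.86 to 6.21), against 412 of 10790 elsewhere (3.82%, 3.46 to 4.20). Among regions of pileup at least 45 with a local background of 10 to 13 fragments, 52 of 333 on chromosome 9 were MST-312-only (15.6%), against 160 of 2748 elsewhere (5.82%). These sets were not matched for pileup, with which the share falls steeply, so they do not separate background from pileup. A −log10 q of 26 needs a higher pileup where the local background is higher. As the share falls with pileup, this requirement by itself favours a lower share on chromosome 9. With it the intervals overlapped, which does not show that chromosome 9 equals the others at the same pileup. The higher share on chromosome 9 was present at the fixed pileup. Its cause was not tested.

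**Figure D5:**
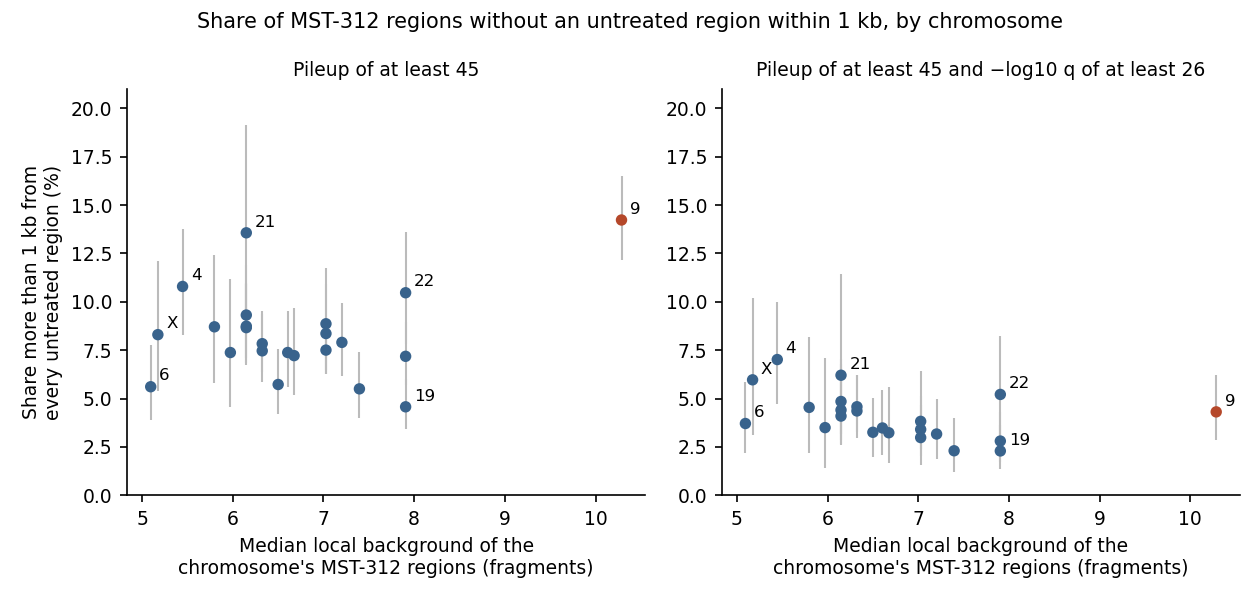
Share of regions of pileup at least 45 that are MST-312-only (y axis, percent, exact 95% intervals) against the median local background of each chromosome's MST-312 regions (x axis, fragments), for all such regions on the left and for those with a −log10 q of at least 26 on the right; numbers name chromosomes. Chromosome 9 stands apart at a background of 10.3 fragments, with 14.2% on the left and 4.31% on the right. A −log10 q of 26 needs a higher pileup at a higher background, which by itself favours a lower share for chromosome 9 on the right.

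MST-312-only regions gathered near each other more than partnered regions gathered near them. The region of pileup at least 45 nearest to an MST-312-only region was itself MST-312-only in 15.4% of the 1308 cases (interval 13.5 to 17.4). For partnered regions weighted to equal pileup it was MST-312-only in 6.74%, and in 6.99% when weighted by pileup and chromosome. The rule keeps MST-312-only regions at least 1 kb from untreated ones, which alone thins out partnered neighbours at short range. Among regions whose nearest neighbour lay beyond 5 kb, the shares were 13.5% (148 of 1100, interval 11.5 to 15.6) and 8.29%, and beyond 20 kb 12.4% (88 of 707, 10.1 to 15.1) and 7.23%. Without chromosome 9 they were 14.4% (12.4 to 16.5) and 6.68%.

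The distance between neighbouring MST-312-only regions had a median of 324 kb between summits (quartiles 81.9 and 999 kb). Another MST-312-only region lay within 1 Mb of 981 of the 1308 (75.0%, interval 72.6 to 77.3), within 100 kb of 367 (28.1%, 25.6 to 30.6) and within 10 kb of 93 (7.11%, 5.78 to 8.64). Such shares go with the number of regions. Within 1 Mb the share was 84.3% for the 2375 regions of pileup at least 40. It was 41.7% for the 266 of pileup at least 60. No equal number of partnered regions was compared, so these shares do not measure clustering. In 16 cases the nearest region of pileup at least 45 was another MST-312-only region with its summit within 1 kb. The largest chain of MST-312-only regions with steps of at most 1 Mb held 16 regions on chromosome 17, with summits from 72349458 to 76362742. The same stretch held 103 partnered regions of pileup at least 45, so 16 of 123 regions there were MST-312-only (interval 7.62% to 20.3%). Its strongest members were chr17:72631356-72631977 (pileup 87), chr17:75842579-75843227 (73) and chr17:75378607-75379094 (68, with the highest fold enrichment of the chain at 8.60). A chain of 15 on chromosome 9, from 134346377 to 138114171, held chr9:137098037-137098887 (pileup 80) and chr9:136548165-136548862 (63), beside 76 partnered regions. Chromosome 22 had 2 chains of 12, from 35726440 to 39778515 and from 42325702 to 47000522, led by chr22:35843882-35844241 (pileup 70) and chr22:42324953-42325964 (75), beside 78 and 68 partnered regions. The MST-312-only share was 15.6% in the chromosome 9 chain, against 14.2% on that whole chromosome. It was 13.2% and 14.8% in the chromosome 22 chains, against 10.5% on that whole chromosome. All 4 chains lay in stretches rich in untreated regions, with 135 to 200 of them each.

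Closer groups, chosen after their values were seen, held 0 to 5 partnered regions of pileup at least 45 and 3 to 6 untreated regions each. With steps of at most 100 kb, the largest group held 8 MST-312-only regions over 186 kb of chromosome 21, with summits from 10995389 to 11181777. No partnered region of pileup at least 45 lay among them. Their pileups ran from 53 to 123 fragments, their fold enrichments from 2.71 to 6.06 and their local backgrounds from 7.91 to 44.8, with a median of 18.0 fragments, so the group lies in a stretch of high input signal next to the centromere. The other groups, of 5 regions each, had lower local backgrounds. On chromosome 9, the group from 124261003 to 124413852 had pileups from 46 to 58 fragments, a median local background of 10.5 and no partnered region of pileup at least 45, and the group from 132164282 to 132342565 had pileups from 45 to 66 beside 4 partnered regions. On chromosome 17, the group from 37872816 to 38059917 had pileups from 48 to 60, a median local background of 10.5 and lengths from 245 to 571 bp, beside 5 partnered regions and 1 within 1 kb of an untreated region.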

How the data were processed

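MYC ChIP-seq regions of 2 libraries were analysed; the input enters only as their background. Per the submitters' processing notes, reads were handled with CASAVA 1.8 and Bowtie2 2.2.3. Per the file headers, peaks were called per library with MACS 2.0.10.20131216 against the same input, with 200 bp fragments, a p-value threshold of 0.05 and at most 3 duplicate tags per position. The deposited pileup is a signal in fragments, unscaled because each MYC library kept fewer tags than the input. The deposited fold enrichment is a ratio with 1 added to both terms, from which the local background was back-calculated. The deposited −log10 p and −log10 q columns carry names without the minus sign. Both lists end near a −log10 q of 13.0; the headers name no such filter.

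Gaps between region ends were computed in Python 3.11.15 (numpy 2.4.6, pandas 2.3.3, scipy 1.17.1, matplotlib 3.10.9). The rule was tested on a synthetic list, and bedtools 2.31.1 gave the same 1308 regions. Partnered regions were weighted so that each whole pileup value counted as often as among the MST-312-only regions; 1 of these, of pileup 1041, had no partnered region of its pileup. Intervals of medians are exact binomial ones. The rule and the measures were chosen with earlier results of these data known. Named regions are those of highest pileup (10 and ties), highest fold enrichment (5), largest and smallest gap (3 each) and the largest chains; regions named by length, listing level, unlisted calls or 100 kb groups were added later. A planned comparison of clustering with equal numbers of partnered regions was replaced by the nearest-neighbour shares, since it would have needed random draws. Gene and E-box comparisons were planned and not run.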

Additional observations from a re-analysis of the deposited data

How the results depend on the processing

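With 1 library per condition no replicate could be left out. Of 68 alternative values, 39 moved beyond the reported value's interval or past 1.5 times the reported count and 29 did not. Of the 68, 12 were added after seeing the data. Some alternatives are other quantities, such as a rate per Mb or a share within another window. The tally therefore does not measure how stable the results are. With a pileup of at least 40, 50 or 60, the number of MST-312-only regions (1308) was 2375, 782 and 266, and their share of regions at that pileup (8.04%) was 12.6%, 5.52% and 2.48%. The share with another such region within 1 Mb (75.0%) was 84.3%, 65.5% and 41.7% and the median length (464 bp) was 427, 488 and 555 bp. The median gap was 17829 bp at 40 and 11855 bp at 60, and the median fold enrichment 6.18 at 50 and 6.47 at 60. With no shared base as the only rule, with gaps over 5 kb and with gaps over 10 kb, the share of regions was 9.33%, 6.06% and 4.66%, the median gap 9955, 21494 and 29275 bp and the share with a neighbour 78.7%, 64.5% and 52.4%; 757 regions were left at 10 kb. Windows of 100 kb, 500 kb and 5 Mb gave 28.1%, 60.3% and 97.0% with a neighbour. The share of regions was 8.67% with regions within 1 kb merged, 10.3% with the threshold scaled by chromosome background and 3.85% with a −log10 q of at least 26. The share on chromosome 9 (11.1%) was 0.876% with the scaled threshold and 6.15% with a −log10 q of at least 26. The scaled threshold compares a pileup of 67.6 on chromosome 9 with lower ones elsewhere and so sets that direction by itself. The −log10 q needs a higher pileup at the higher background of chromosome 9, which favours the same direction. As a rate, chromosome 9 held 1.03 regions per Mb, and of the chromosome's own regions 14.2% were MST-312-only. The median fold enrichment of partnered regions (6.10) was 6.03 weighted also by chromosome and 5.95 weighted also by local background. The median scaled pileup over the listing level (1.36) was 1.24 unscaled. Fewer or more regions entering by construction moved the counts; the cause of the other shifts was not tested. Limiting the local background to 3 times the list median changed none of the 6 values beyond these bounds. The depth limits what absence from the untreated list means to the listing levels given above. E-box and gene alternatives were not run.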
